A study of Mus musculus with 12 samples.

Results

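Tff3, the gene of a small trefoil peptide, and 9 further genes of bile duct epithelium were followed through RNA-seq counts of 12 mouse livers. The 10 genes are Tff3, Cldn4, Cldn7, Krt7, Krt19, Epcam, Sox9, Prom1, Cd24a and Cftr. They were picked by gene symbol from the 27304 genes of the count table, all 10 were found, and all 10 were among the 13641 genes that passed the filter on low counts. The choice was made with the genotype difference of these same libraries known, in which Tff3 stood out, so every genotype value of the 10 genes below is a description and tests nothing.

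All mice were Apoe-/-, that is, without apolipoprotein E, the carrier protein of plasma lipoproteins, and all had 12 weeks of the diet labelled HFD. The groups were Apoe-/-AhR-/- males, Apoe-/-AhR-/- females, Apoe-/- males and Apoe-/- females, with 3 livers each. AhR is the aryl hydrocarbon receptor, a ligand-activated transcription factor, and the series asks how it affects the liver. The labels name neither the alleles nor the strain background, and the mice were flushed with PBS before the livers were taken. The labels give 1 liver per sample but no litter or cage, so each p-value reflects only how far these livers lie apart.

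Bile ducts are lined by cholangiocytes, a minor cell type of the liver that modifies bile by secretion and is sealed by tight junctions. Cholangiocytes and hepatocytes share an embryonic precursor, and Sox9 together with Notch signals marks the duct side of that choice. When ducts or hepatocytes are injured, cells with duct and progenitor markers, such as Krt19, Epcam, Prom1 and Cd24a, can multiply in a ductular reaction. Trefoil peptides are secreted with mucins on mucous epithelia and are linked to epithelial repair.

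Levels are CPM, the count of a gene relative to its library total after TMM scaling, which corrects for differences in RNA composition. Libraries held 9794253 to 18924880 counts in all, and 1 count stood for 0.0395 to 0.109 CPM. The duct genes were therefore read at low depth, and a value near 0.1 CPM is 1 to 3 counts. Mitochondrially encoded genes took 30.4% to 59.8% of the counts in Apoe-/-AhR-/- livers and 46.7% to 69.8% in Apoe-/- livers. Ahr itself was counted at 13.1 to 36.5 CPM of the unscaled total in Apoe-/-AhR-/- livers and at 10.6 to 23.3 CPM in Apoe-/- livers, but a count over the whole gene does not test a deletion within it. Cyp1a2, a target of the receptor, had 46.2 to 204.9 CPM in Apoe-/-AhR-/- livers, against 261.5 to 931.4 CPM in Apoe-/- livers. Apoe-/-AhR-/- female replicate 1 and Apoe-/- male replicate 1 stood apart by 12 markers of neurons and glia, which summed to 433.01 and 157.4 CPM, against 10.7 to 22.1 CPM in the other 10 libraries. The female library also had less Xist, the RNA of the silenced X chromosome (171.8 CPM, against 468.01 to 1236 CPM in the other females), more of the Y-linked Kdm5d (2.25 CPM, against at most 0.181 CPM), and the lowest correlations with its group (0.805 and 0.811). Results are therefore also given without these 2 libraries.

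The sequences before the start sites of the duct genes are shown first, since the animals differ in a transcription factor. The promoter table held the windows of 6 of the 10 genes. Tff3, Krt19, Sox9 and Cd24a were not in it. For both claudins, Epcam and Cftr the 250 bases before the RefSeq start site are printed 5′ to 3′ (RefSeq, GRCm38.p6, the first listed start site of Cldn7), with capitals for GCGTG, the core that Ahr binds with its partner Arnt, and for GGAATG, a Tead core.
Cldn4 (chr5:134946935-134947184, minus strand): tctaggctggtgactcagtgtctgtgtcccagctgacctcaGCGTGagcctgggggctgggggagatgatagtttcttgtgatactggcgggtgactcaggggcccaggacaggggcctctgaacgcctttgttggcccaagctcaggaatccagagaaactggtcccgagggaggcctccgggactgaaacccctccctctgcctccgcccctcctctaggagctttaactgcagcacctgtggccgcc
Cldn7 (chr11:69964529-69964778, plus strand): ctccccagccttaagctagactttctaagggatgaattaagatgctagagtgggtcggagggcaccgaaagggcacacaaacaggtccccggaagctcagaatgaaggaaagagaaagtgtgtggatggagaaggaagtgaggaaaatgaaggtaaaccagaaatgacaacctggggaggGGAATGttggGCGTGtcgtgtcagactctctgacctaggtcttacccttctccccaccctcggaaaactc
Epcam (chr17:87635729-87635978, plus strand): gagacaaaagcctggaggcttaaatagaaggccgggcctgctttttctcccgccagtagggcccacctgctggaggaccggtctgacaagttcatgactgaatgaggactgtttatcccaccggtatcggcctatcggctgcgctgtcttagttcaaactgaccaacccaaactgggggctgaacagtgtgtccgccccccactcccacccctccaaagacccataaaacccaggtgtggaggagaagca
Cftr (chr6:18170437-18170686, plus strand): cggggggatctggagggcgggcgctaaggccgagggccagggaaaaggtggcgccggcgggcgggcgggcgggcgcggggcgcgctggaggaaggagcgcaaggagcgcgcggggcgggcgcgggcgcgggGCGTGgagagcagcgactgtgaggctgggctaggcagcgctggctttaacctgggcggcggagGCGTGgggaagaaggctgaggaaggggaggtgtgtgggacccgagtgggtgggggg
GCGTG, searched on both strands, stood at position -209 before the start site in Cldn4, at -60 in Cldn7 and at -119 and -56 in Cftr, counted to its first base. It also stood at -129 before the other start site of Cldn7, whose window is not printed. Among the 8 windows of the 6 genes, 4 held GCGTG, against 28.2% of all 32851 promoter windows of this length. These 4 windows belong to 3 of the 6 genes, since both windows of Cldn7 are among them. The Rbpj core TGGGAA, through which Notch acts, was in 2 of the 8 windows, in Prom1 and at the other start site of Cldn7, against 21.6% of all windows. GGAATG was in 1 of the 8, in Cldn7, against 12.6%. The windows of Epcam and Krt7 held none of these letters, which says nothing of sites elsewhere.

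Tff3 (ENSMUSG00000024029, chromosome 17, 31125306 to 31129646, minus strand, GRCm38) parted all 4 groups without overlap. Apoe-/-AhR-/- males had 6.71, 16.5 and 27.3 CPM in replicates 1, 2 and 3, from 170, 213 and 691 counts. Apoe-/-AhR-/- females had 4.41, 1.86 and 1.82 CPM. Apoe-/- males had 1.26, 1.01 and 1.15 CPM, and Apoe-/- females had 0.0690, 0.546 and 0.333 CPM from 1, 5 and 4 counts. The order of the groups was thus Apoe-/-AhR-/- males, Apoe-/-AhR-/- females, Apoe-/- males and Apoe-/- females. No 2 neighbours in that order shared a value, although the closest libraries of the middle groups were only 1.82 and 1.26 CPM. The share of all genes that part the 4 groups without overlap was not computed, and Tff3 was picked with its genotype difference known.

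The means of Tff3 were 16.8 ± 10.3 CPM in Apoe-/-AhR-/- males and 1.14 ± 0.128 CPM in Apoe-/- males (SD, n = 3 each), a ratio of 14.8. In females they were 2.70 ± 1.48 CPM and 0.316 ± 0.239 CPM, a ratio of 8.54. Averaged over the sexes the log2 fold change, Apoe-/-AhR-/- minus Apoe-/-, was 3.52 ± 0.45 (SE), and 3.32 ± 0.47 without the 2 libraries with neural transcripts. Of the 10 genes Tff3 was the only 1 past an adjusted p of 0.05 there, where 1.06% of all genes passed in either direction. It also passed when any 1 library was left out. In males it passed as 1 of 10 (3.88 ± 0.58), against 0.0367% of all genes, but that call was lost on leaving out any single library other than Apoe-/-AhR-/- female replicate 1, with log2 fold changes of 3.33 to 4.28. In females (3.15 ± 0.69) none of the 10 passed, against 0.161% of all genes. An unadjusted p under 0.05 was found for 5 of them, as for 14.4% of all genes. DESeq2 called 1 of the 10 in females, against 3.62% of all genes, and limma-voom 0, against 0.257%.

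**Figure D1:**
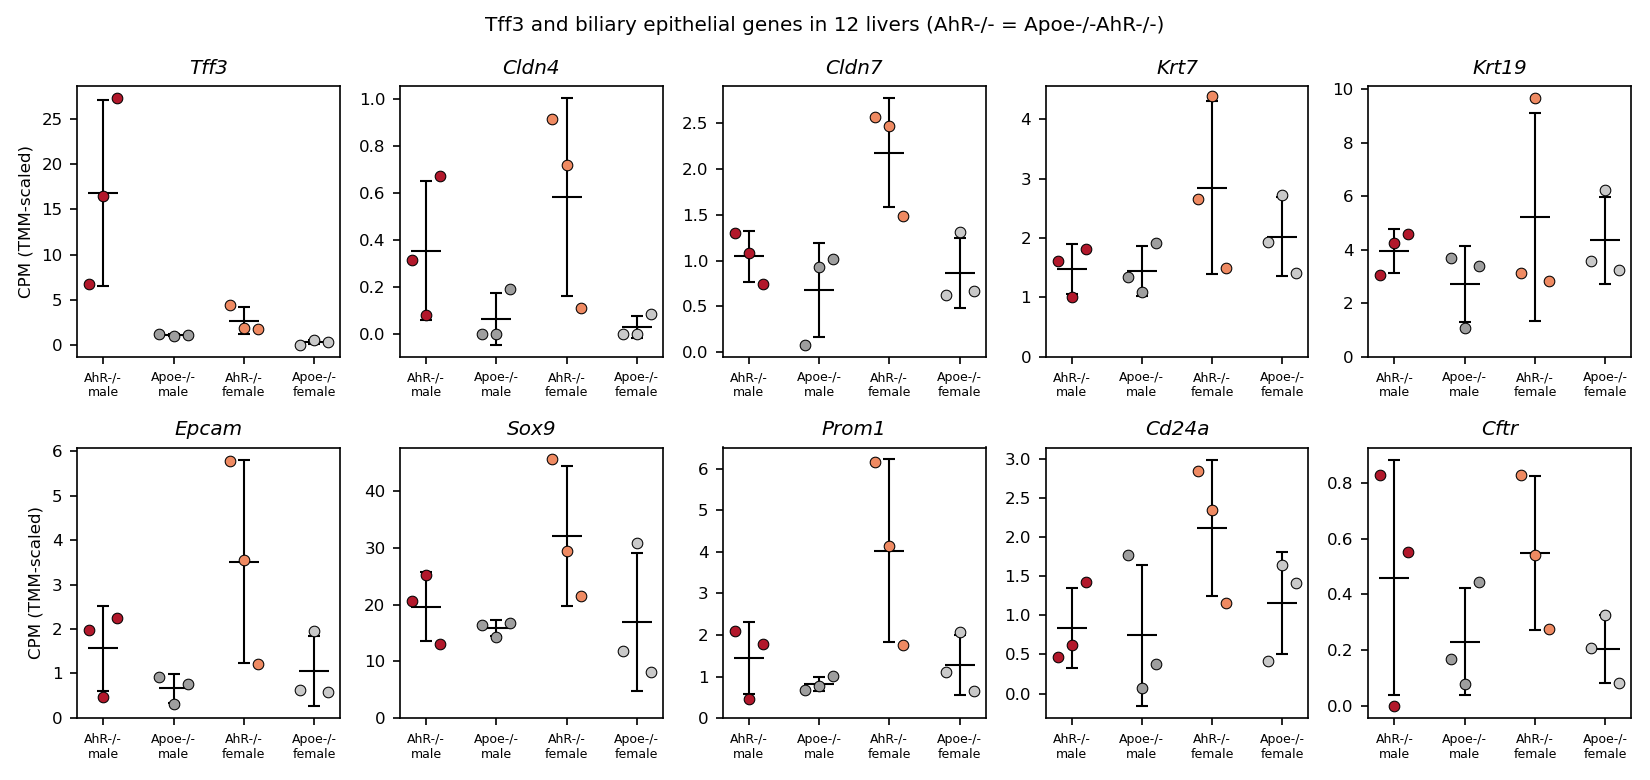
TMM-scaled CPM of the 10 genes in each liver, with 1 panel per gene and a linear scale of its own. Points are livers, horizontal marks are means and bars are SD of 3 livers, and AhR-/- on the axis stands for Apoe-/-AhR-/-. Tff3 runs from 6.71 to 27.3 CPM in Apoe-/-AhR-/- males and from 1.01 to 1.26 CPM in Apoe-/- males, while in most other panels the groups overlap.

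Per length of the annotated exons, Tff3 was the highest of the 10 genes in Apoe-/-AhR-/- males, at 34.1 ± 20.9 RPKM, where Sox9 had 4.75 ± 1.48 RPKM and Krt19 2.14 ± 0.439 RPKM. In Apoe-/-AhR-/- females Sox9 was highest, at 7.77 ± 2.97 RPKM, ahead of Tff3 at 5.47 ± 3.0 RPKM, and their spreads overlapped. In Apoe-/- males Sox9 had 3.83 ± 0.324 RPKM and Tff3 2.31 ± 0.260 RPKM. In Apoe-/- females Sox9 had 4.10 ± 2.93 RPKM, Krt19 2.35 ± 0.877 RPKM and Tff3 0.641 ± 0.484 RPKM. Cftr was lowest in Apoe-/-AhR-/- livers, at 0.0593 ± 0.0543 RPKM in males and 0.0706 ± 0.0355 RPKM in females.

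All 9 other genes had a positive averaged log2 fold change, and none of them passed the test. The median of the 9 was 0.97, against 0.04 for all genes tested, of which 54.2% were positive. The fold change was positive for all 10 genes in males alone, where 50% of all genes were positive, and in females alone, where 54.9% were. It was positive for all 10 in both sexes without the 2 libraries with neural transcripts too, but not under every omission of 1 library. Krt19 turned to -0.01 averaged and -0.55 in females without Apoe-/-AhR-/- female replicate 2. In males Krt7 was below 0 under 4 omissions, at -0.13 in the lowest, and Cd24a under 3, at -0.43 in the lowest. Without the 2 libraries the averaged value was 0.68 for Krt19 and 1.23 for Cd24a, against 0.41 and 0.55 with all 12, and the other 8 genes moved by less than 1.5 times. The 10 genes were grouped as genes of 1 epithelium and may move together, so their shared sign is not 10 separate observations. Which cells of these livers made their RNA was not tested. The spread between livers was wide: every Apoe-/-AhR-/- library lay above every Apoe-/- library of its sex for 1 of 10 genes in males, against 6.55% of all genes, and for 3 of 10 in females, against 9.22%. Those in females were Tff3, Cldn4 and Cldn7. Both held for Tff3, as for 1.28% of all genes. Markers of T and NK cells had values of like size: all 5 tested were positive, none passed, and their median was 1.21 for both sexes together and 1.89 in females. Those 6 markers summed to 3.15 to 10.1 CPM of the unscaled total in Apoe-/-AhR-/- males and 6.61 to 12.3 CPM in Apoe-/-AhR-/- females, against 1.54 to 5.36 CPM in Apoe-/- males and 1.89 to 2.41 CPM in Apoe-/- females. Their part in the result was not tested. In whole liver, more duct cells, more RNA per duct cell and RNA from other cells cannot be told apart.

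**Figure D2:**
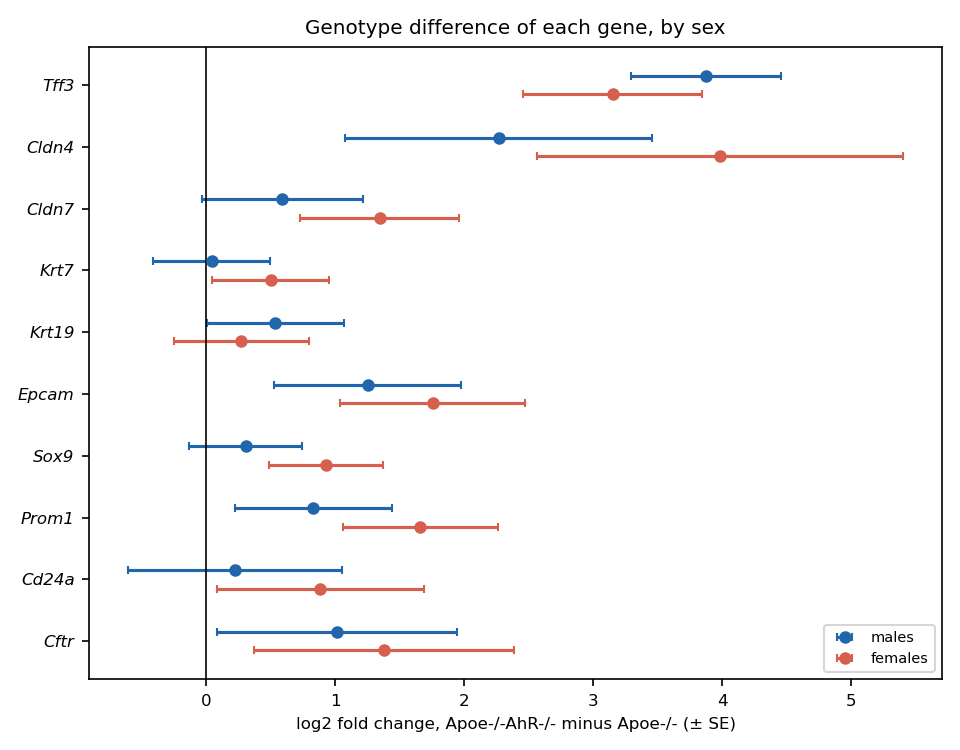
Log2 fold change of each gene, Apoe-/-AhR-/- minus Apoe-/-, in males (blue) and females (red), with SE from the edgeR fit of all 12 livers. Tff3 lies at 3.88 in males and 3.15 in females, while Krt7 lies at 0.04 in males and 0.50 in females.

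Claudins form the strands of tight junctions, and Cldn4 had the averaged log2 fold change next in size to that of Tff3, with few counts behind it. Cldn4 (chromosome 5, 134945119 to 134946934, minus strand) had 8, 1 and 17 counts in Apoe-/-AhR-/- males and 10, 12 and 2 counts in Apoe-/-AhR-/- females. It had 0, 0 and 3 counts in Apoe-/- males and 0, 0 and 1 in Apoe-/- females. The ratio of the summed, scaled counts was 5.52 in males (exact 95% interval 1.69 to 28.5) and 18.8 in females (3.06 to 771.5), intervals that cover counting error only. With so few counts in Apoe-/- livers the size of the ratio is not fixed by these data. Cldn7 (chromosome 11, 69964779 to 69967885, plus strand) had 2.57, 2.47 and 1.49 CPM in Apoe-/-AhR-/- females, against 0.621, 1.31 and 0.666 CPM in Apoe-/- females. In males it overlapped, with 1.30, 1.09 and 0.750 CPM in Apoe-/-AhR-/- livers against 0.0842, 0.929 and 1.02 CPM in Apoe-/- livers. Its averaged log2 fold change was 0.97 ± 0.44.

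The adhesion and apical membrane genes differed by an intermediate amount. Epcam (chromosome 17, 87635979 to 87651129, plus strand) encodes an adhesion molecule of simple epithelia that adult hepatocytes lack. It had 1.97, 0.465 and 2.25 CPM in Apoe-/-AhR-/- males against 0.926, 0.310 and 0.765 CPM in Apoe-/- males. In females it had 5.79, 3.55 and 1.21 CPM against 0.621, 1.96 and 0.583 CPM, so that 1 library of each genotype crossed over. Prom1 (chromosome 5, 43993620 to 44102032, minus strand), the gene of the membrane protein prominin 1 of progenitor cells, had 2.09, 0.465 and 1.78 CPM in Apoe-/-AhR-/- males against 0.674, 0.775 and 1.02 CPM in Apoe-/- males. In females it had 6.15, 4.15 and 1.77 CPM against 1.10, 2.07 and 0.666 CPM. The averaged log2 fold changes were 1.50 ± 0.51 for Epcam and 1.25 ± 0.43 for Prom1. In each of these genes Apoe-/-AhR-/- male replicate 2 lay within or below the Apoe-/- males.

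Cftr (chromosome 6, 18170687 to 18322768, plus strand), the chloride channel that drives bile duct secretion, had 21, 0 and 14 counts in Apoe-/-AhR-/- males against 2, 1 and 7 in Apoe-/- males. In females it had 9, 9 and 5 counts against 3, 3 and 1. The count of 0 in male replicate 2 allows up to 0.233 CPM, which includes the levels of 2 of the 3 Apoe-/- males. The averaged log2 fold change was 1.20 ± 0.69. Cd24a (chromosome 10, 43578284 to 43584265, plus strand), a surface glycoprotein gene of progenitors and also of blood cells, had an averaged log2 fold change of 0.55 ± 0.58 with overlap in both sexes. Without the 2 libraries with neural transcripts it was 1.23 ± 0.53 averaged and 1.82 ± 0.84 in males, against 0.22 ± 0.83 in males with all libraries. It ran from 0.473 to 1.42 CPM in Apoe-/-AhR-/- males against 0.0775 to 1.77 CPM in Apoe-/- males, and from 1.16 to 2.85 CPM against 0.414 to 1.64 CPM in females. Intronless copies of Cd24a exist in the mouse genome, and genes overlap Cftr, Krt7 and Prom1 on the opposite strand. On the same strand the pseudogene Gm15595 overlaps Cftr, and Gm42716 overlaps Prom1, which can affect counts under any strand setting. No source used here states whether counting used the strand, so these counts are uncertain.

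The classical duct keratins differed least. Krt19 (chromosome 11, 100140810 to 100148665, minus strand) had 3.04, 4.27 and 4.58 CPM in Apoe-/-AhR-/- males against 3.70, 1.08 and 3.38 CPM in Apoe-/- males. In females it had 3.12, 9.68 and 2.82 CPM against 3.59, 6.22 and 3.25 CPM, so 2 of the 3 Apoe-/-AhR-/- females lay below all Apoe-/- females. Krt7 (chromosome 15, 101411043 to 101430313, plus strand) had means of 1.48 ± 0.421 CPM in Apoe-/-AhR-/- males and 1.45 ± 0.423 CPM in Apoe-/- males, and of 2.85 ± 1.46 and 2.03 ± 0.661 CPM in females (SD, n = 3 each). The averaged log2 fold changes, 0.41 ± 0.37 for Krt19 and 0.27 ± 0.32 for Krt7, were close to their own SE. Their 95% intervals, -0.40 to 1.21 and -0.42 to 0.97, include 0.

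Sox9 (chromosome 11, 112782224 to 112787760, plus strand), the transcription factor of duct identity, had 98 to 523 counts per library. It had 20.6, 25.2 and 13.1 CPM in Apoe-/-AhR-/- males against 16.4, 14.3 and 16.8 CPM in Apoe-/- males. In females it had 45.6, 29.3 and 21.4 CPM against 11.9, 30.8 and 8.16 CPM. Its averaged log2 fold change was 0.62 ± 0.31. Male replicate 3, the highest for Tff3, was the lowest Apoe-/-AhR-/- male for Sox9.

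In Apoe-/-AhR-/- males Tff3 rose from replicate 1 to replicate 3, an order that Krt19 and Cd24a shared and the other genes did not. In Apoe-/-AhR-/- male replicate 2 Tff3 stood 3.72 log2 units above the mean of Apoe-/- males (prior count of 2). Epcam, Prom1, Krt7 and Cftr stood below that mean there, at -0.33, -0.66, -0.44 and -1.34. Cldn7, Krt19, Sox9, Cd24a and Cldn4 stood above it, at 0.93, 0.79, 0.67, 0.36 and 0.24. In Apoe-/-AhR-/- female replicate 3 Tff3 stood at 2.30, and 7 of the 10 genes were at or below the highest Apoe-/- female. That library was the lowest of its group for all 10 genes. Apoe-/-AhR-/- female replicate 1, the library with neural transcripts, was the highest of its group for 8 of 10, and Apoe-/- female replicate 2 for 9 of 10. That Apoe-/- female had the largest mitochondrial share, 69.8%, and Apoe-/-AhR-/- female replicate 3 had 59.8%, the largest among Apoe-/-AhR-/- livers. The part of that share in these levels was not tested.

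**Figure D3:**
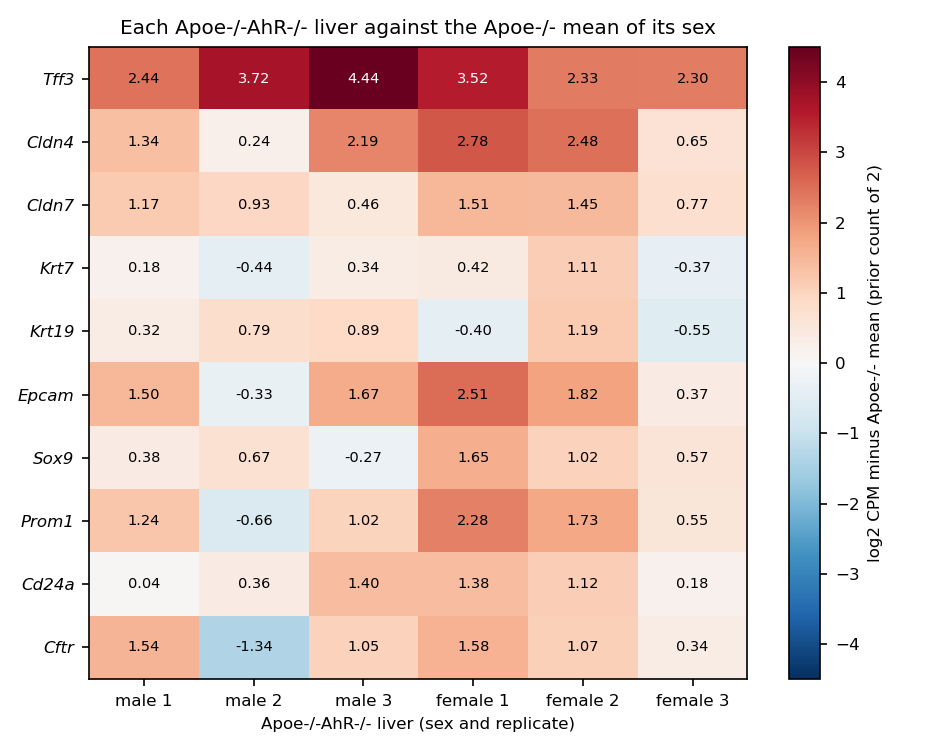
Log2 CPM (prior count of 2) of each gene in each Apoe-/-AhR-/- liver minus the mean of the 3 Apoe-/- livers of its sex. Rows are genes and columns are livers, with red above and blue below the Apoe-/- mean. Tff3 is above it in all 6 livers, at 2.30 to 4.44, while male 2 and female 3 are near or below it for several duct genes.

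Within the groups, levels of Epcam, Prom1 and Cftr followed each other. After subtraction of group means, Pearson's r over the 12 libraries was 0.90 for Prom1 with Cftr, 0.90 for Epcam with Prom1 and 0.84 for Epcam with Cftr. Over the 36 pairs of the 9 genes the median r was 0.38 (range -0.51 to 0.90), and over the 9 pairs with Tff3 it was 0.20. These are descriptions without a test. The points share library depth, and they include both libraries with neural transcripts.

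The sex difference was not part of the rule that chose the genes, but it rests on the same livers. The Apoe-/-AhR-/- males that made Tff3 stand out by genotype also set its sex difference there, so the values of the 10 genes by sex are given as a description. Tff3 was higher in males than in females in both genotypes. In Apoe-/-AhR-/- livers it averaged 16.8 CPM in males and 2.70 CPM in females, which is 2.66 ± 0.54 log2 units, male minus female. In Apoe-/- livers it averaged 1.14 CPM in males and 0.316 CPM in females, a difference of 1.94 ± 0.73. In both genotypes every male lay above every female, which held for 4.83% and 9.38% of all genes. None of the 10 genes passed in Apoe-/-AhR-/- livers, against 0.279% of all genes, with 2 at an unadjusted p under 0.05 (8.68% of all genes). DESeq2 called 1 of the 10 there (1.64% of all genes) and limma-voom 0 (0.257%). In Apoe-/- livers 0 of 10 passed, against 0.352% of all genes, with 1 at an unadjusted p under 0.05 (5.79% of all genes). DESeq2 and limma-voom called 0 of the 10 in Apoe-/- livers, against 1.05% and 0.264% of all genes. For Tff3 in Apoe-/-AhR-/- livers the value ran from 2.12, without Apoe-/-AhR-/- male replicate 3, to 3.20, without Apoe-/-AhR-/- female replicate 1, over the 12 omissions of 1 library. It passed in 2 of the 12, without Apoe-/-AhR-/- male replicate 1 (3.07) or female replicate 1, and also without both libraries with neural transcripts (3.20 ± 0.56). It did not pass in the other 10, nor in a fit of the Apoe-/-AhR-/- livers alone (2.68 ± 0.61).

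Averaged over both genotypes, a contrast added after these values were seen, Tff3 had a male minus female value of 2.30 ± 0.45 log2 units. It was the only 1 of the 10 genes past an adjusted p of 0.05 there, against 1.07% of all genes. The value ran from 2.03 to 2.61 when each library was left out, and it passed only without Apoe-/-AhR-/- male replicate 1 or Apoe-/-AhR-/- female replicate 1, not under the other 10 omissions. The other genes leaned the opposite way without passing: 7 of the 9 had negative averaged values, where 53.4% of all genes did, with a median of -0.67 for the 9. The largest was Prom1 at -1.01 ± 0.43. In Apoe-/-AhR-/- livers Prom1 averaged 1.44 ± 0.862 CPM in males and 4.02 ± 2.20 CPM in females, and Cldn7 1.05 ± 0.278 CPM in males and 2.18 ± 0.596 CPM in females, with every female above every male for Cldn7 alone, as for 6.38% of all genes. In these livers 9 of 10 genes had a negative male minus female value, as had 54.3% of all genes, and in Apoe-/- livers 7 of 10, as had 48.8%. Without the 2 libraries with neural transcripts, 2 of 10 were positive in Apoe-/-AhR-/- livers and 4 of 10 in Apoe-/- livers. With all 12 libraries these positive values numbered 1 and 3. No gene of the 10 had every Apoe-/- female above every Apoe-/- male, which held for 9.19% of all genes. Whether Tff3 and the other genes differ in their sex difference was not tested.

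**Figure D4:**
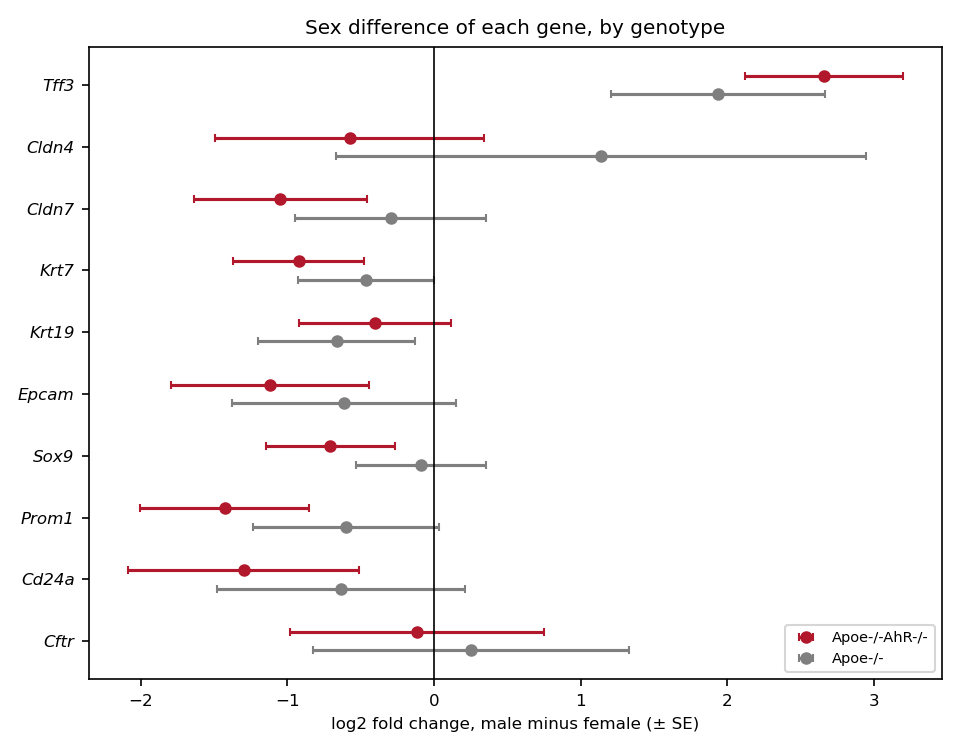
Log2 fold change of each gene, male minus female, in Apoe-/-AhR-/- (red) and Apoe-/- (grey) livers, with SE from the edgeR fit of all 12 livers. Tff3 lies at 2.66 and 1.94, to the right of 0 in both genotypes, and the other 9 genes all lie left of 0 in Apoe-/-AhR-/- livers.

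The genotype difference was not shown to depend on sex for any of the 10 genes. The interaction, male minus female genotype difference, was 0.72 ± 0.97 for Tff3 (95% interval -1.38 to 2.83, edgeR adjusted p = 0.999). None of the 10 passed, against 0.00733% of all genes, and none had an unadjusted p under 0.05, as did 4.6% of all genes. DESeq2 and limma-voom called 0 of the 10, against 0.148% and 0.00733% of all genes. The sign of the interaction was negative for 8 of the 10, as for 52.7% of all genes. The sign was positive for 2 of the 10, and for 4 of the 10 without the 2 libraries with neural transcripts. The interval for Tff3 holds both a larger difference in males and a larger one in females.

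Few other genes listed as markers of bile duct epithelium passed the test. All lists of other genes in this report were also drawn up with earlier results of these data known. Their values and adjusted p-values are therefore descriptions and give no independent support. Of 14 tested further duct markers, Cdh1, the gene of E-cadherin, which joins epithelial cells and is also made by hepatocytes, rose by 1.48 ± 0.30 on the averaged log2 scale (edgeR adjusted p = 0.0381), and 13 did not pass. Cdh1 had 17.3 ± 7.73 CPM in Apoe-/-AhR-/- males and 24.5 ± 14.9 CPM in Apoe-/-AhR-/- females, against 7.75 ± 0.447 CPM in Apoe-/- males and 6.99 ± 1.83 CPM in Apoe-/- females. The most abundant of that list were the keratins Krt18 (0.55 ± 0.23, edgeR adjusted p = 0.258) and Krt8 (1.08 ± 0.36, adjusted p = 0.175), which hepatocytes make too. The list's median was 0.57 and 14 of 14 were positive. None of 9 tested genes of cholangiocyte secretion and transport passed for genotype, with 7 positive, a median of 0.33, and Slc4a2, the bicarbonate exchanger of duct secretion and the most abundant, at -0.14 ± 0.27 (adjusted p = 0.857). Slc10a2, the bile acid carrier of cholangiocytes, had 15.3 ± 3.49 CPM in males and 6.92 ± 1.88 CPM in females in Apoe-/-AhR-/- livers and 9.29 ± 1.03 CPM in males and 4.54 ± 0.976 CPM in females in Apoe-/- livers. Averaged over both genotypes, the contrast added after values were seen, the difference was 1.09 ± 0.20 (edgeR adjusted p = 0.0208), while within Apoe-/-AhR-/- livers (adjusted p = 0.170) and within Apoe-/- livers (adjusted p = 0.322) it did not pass.

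Of the mucosal partners of trefoil peptides, 3 of the 9 matched genes could be tested, and Tff1 and Tff2 were not among them. Pigr, the receptor that carries antibodies into bile, fell by 1.47 ± 0.31 (edgeR adjusted p = 0.0396), to 1155 ± 650 CPM in Apoe-/-AhR-/- males and 1046 ± 56.7 CPM in Apoe-/-AhR-/- females, against 2175 ± 575 CPM in Apoe-/- males and 4289 ± 1151 CPM in Apoe-/- females. Muc6, a gel-forming mucin gene, had a value of 0.27 ± 0.50 (adjusted p = 0.860). Of 15 tested other claudins and tight junction genes, Marveld3, a membrane protein of tight junctions, rose by 1.62 ± 0.32 (adjusted p = 0.0342) and 14 did not pass. A positive value was found for 14 of the 15, with a median of 0.28. Cldn3, the most abundant of them, was at 0.91 ± 0.24 (adjusted p = 0.0983) and Tjp3 at 0.09 ± 0.27 (adjusted p = 0.921).

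In the pathways that act upstream of duct fate, 1 of 11 tested Notch genes passed, against 1.06% of all genes. That was the ligand gene Jag2, which rose by 1.92 ± 0.37 (edgeR adjusted p = 0.0287). It had 2.52 ± 0.635 CPM in Apoe-/-AhR-/- males and 3.79 ± 1.70 CPM in Apoe-/-AhR-/- females, against 1.16 ± 0.756 CPM in Apoe-/- males and 0.591 ± 0.247 CPM in Apoe-/- females. Of the 11 Notch genes 10 had a positive averaged value, as had 54.2% of all genes, and their median was 0.50. The exception was the Notch target Hes1, the most abundant, at -0.34 ± 0.42 (adjusted p = 0.756). The receptor Notch2 was at 0.50 ± 0.24 (adjusted p = 0.336). None of 7 tested YAP and TAZ genes passed, with 5 of 7 positive and a median of 0.16. The 2 most abundant were Yap1 at 0.03 ± 0.14 (adjusted p = 0.951) and Amotl2 at -0.46 ± 0.22 (adjusted p = 0.340). Of 6 tested other progenitor genes 4 were positive, with a median of 0.49, and 1 passed. That was Tnfrsf12a, the receptor of the cytokine TWEAK that drives ductular reactions in mice, which rose by 1.55 ± 0.27 (adjusted p = 0.0186). Cd44 was at 0.29 ± 0.28 (adjusted p = 0.678). Cdh1, Pigr, Marveld3, Jag2 and Tnfrsf12a passed without the 2 libraries with neural transcripts too. Under the 12 omissions of 1 library they passed in 3, 2, 2, 3 and 5, and the highest adjusted p was 0.150, 0.144, 0.138, 0.133 and 0.0972. Slc10a2 passed in 6 of 12 omissions, with an adjusted p of at most 0.0812.

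Markers of other cell types moved beside the duct genes to different degrees, and their part in the results was not tested. None of the 8 hepatocyte markers passed, with 6 of 8 positive and a median of 0.34. Their sum was 29232 to 66727 CPM in Apoe-/-AhR-/- males and 33519 to 85345 CPM in Apoe-/-AhR-/- females. In Apoe-/- livers it was 16719 to 29645 CPM in males and 12861 to 22244 CPM in females. This sum and those below are CPM of the unscaled total. Without TMM scaling the median averaged genotype value of all genes was higher by 0.50. None of 8 stellate cell and fibroblast markers passed, with 8 of 8 positive, a median of 0.40 and sums of 287.3 to 807.3 and 439.7 to 1309 CPM in Apoe-/-AhR-/- males and females, against 239.5 to 437.4 and 286.5 to 295.1 CPM in Apoe-/- males and females. The 8 pancreatic acinar markers summed to 0.173 to 4.29 CPM in Apoe-/-AhR-/- livers and 0.181 to 0.939 CPM in Apoe-/- livers, with none of the genes at 0 in all libraries. The 6 intestinal markers summed to 22.8 to 117.0 CPM in Apoe-/-AhR-/- livers and 24.7 to 61.03 CPM in Apoe-/- livers, with Lgals4 and Fabp2 the most abundant, and none of the 3 tested passed. Of 6 Kupffer cell markers Marco, a scavenger receptor gene of macrophages, rose by 2.16 ± 0.34 (edgeR adjusted p = 0.0148), a call lost in 7 of the 12 omissions of 1 library, with an adjusted p of up to 0.0794. The other 5 did not pass, with Clec4f, the most abundant, at 0.09 ± 0.27 and Cd5l at -0.52 ± 0.22. None of 6 endothelial, 2 tested mesothelial or 4 tested neural markers passed.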

How the data were processed

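RNA-seq counts of 12 livers were analysed. The authors deposited raw counts per gene with 1 column per library, and variance-stabilised values, which approximate log2, from DESeq2. The submitters' processing notes list STAR 2.7.8, DESeq2 1.28.1, Trim Galore 0.6.5, FastQC 0.11.8 and build GRCm38. No source used here names the counter, the use of strand or the gene annotation. Positions and exon lengths come from GENCODE M21 (GRCm38), matched by Ensembl ID for 27225 genes.

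Of the 27304 genes, 13641 passed filterByExpr by the 4 groups. Libraries were scaled by TMM and tested with edgeR 4.0.16 (R 4.3.3) by a robust quasi-likelihood fit with 4 group means over all 12 libraries and 8 residual degrees of freedom. Tests were two-sided, with Benjamini-Hochberg adjustment over all genes tested, and called at 0.05. RPKM is the scaled CPM per kilobase of the union of annotated exons. Alternatives were other scalings, filters and tools (DESeq2 1.42.0, limma 3.58.1 with voom or on the deposited values) and omissions of libraries. The code was tested on simulated data. Replicate pairs differed by a chi-square of 22.2 to 248.2 per degree of freedom, so none was counted as 1 library. The low depth of most duct genes limits the precision, and intervals and floors of 3 counts cover counting error only.

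The members and the gene lists were chosen with earlier results of these data known. Named were all 10 members and, from each list of related genes, those past the test in any contrast and the 2 most abundant. Replicate numbers follow accession order and pair nothing. Cyr61, Ctgf, Muc2 and Cldn25 had no row under that symbol.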

Additional observations from a re-analysis of the deposited data

How the results depend on the processing

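The averaged genotype call of Tff3 held under all 21 alternatives, with log2 fold changes of 2.14 to 4.04, the lowest from the deposited variance-stabilised values. Among the 10 genes, the averaged genotype contrast gave 1 call, 5 with scaling by library size alone (which raised the median of all genes by 0.50) and 2 with DESeq2, and 1 under every omission of a library. Of all genes, 7.72% passed with library size alone and 4.9% with DESeq2, against 1.06%. The calls added were Cldn4, Epcam, Sox9 and Prom1 with library size alone, and Cldn4 with DESeq2. In males there was 1 call, 0 with limma-voom (0.022% of all genes) and 0 to 1 over the omissions. In females there were 0 calls, and 1 each with library size alone (0.858% of all genes) and DESeq2 (3.62%). The sex difference in Apoe-/-AhR-/- livers gave 0 calls, 1 each with library size alone (0.396% of all genes), no count filter (0.22%), DESeq2 (1.64%) and without the 2 libraries with neural transcripts (0.799%), and 0 to 1 over the omissions. The sex difference averaged over genotypes gave 1 call, 0 with limma-voom (0.872% of all genes) and 0 to 1 over the omissions. The interaction and the sex difference in Apoe-/- livers gave 0 calls under every alternative run. Of 1490 values of single genes under the alternatives, 52 changed sign or had no counterpart, none of them past the test. Causes were not tested. Over all genes, the averaged genotype contrast gave 144 calls and 6 to 663 over the omissions. No paired analysis was possible because the replicate numbers follow accession order and the labels pair no livers.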

Other observations

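Genes whose levels were most like those of Tff3 over the 12 libraries were Mthfd2, Saysd1, Dhdds, Slc41a2 and Fndc3b, with a Pearson correlation of log2 CPM of 0.93, 0.92, 0.91, 0.91 and 0.90. Mthfd2 averaged 4.51 CPM in Apoe-/-AhR-/- males, 2.16 CPM in Apoe-/-AhR-/- females, 1.69 CPM in Apoe-/- males and 1.13 CPM in Apoe-/- females, the same order of groups as Tff3. Slc41a2 averaged 12.0, 3.40, 3.48 and 1.88 CPM in these groups. None of the 5 is in the lists of duct genes. Genes most like the mean standardised level of the other 9 genes were Pdzk1ip1, Scara3, Bicc1, H19 and Rhoc, at 0.96, 0.95, 0.95, 0.93 and 0.92. Of these, Bicc1 is in the list of further duct markers. Pdzk1ip1 averaged 4.70 CPM in Apoe-/-AhR-/- males, 9.11 CPM in Apoe-/-AhR-/- females, 3.27 CPM in Apoe-/- males and 4.08 CPM in Apoe-/- females. Without Apoe-/-AhR-/- female replicate 1 the 10 correlations ran from 0.89 to 0.96. The correlations were picked as the highest among the tested genes outside the 10 members and carry no test. Gene models without an established name, such as those of Gm and digits or Rik, were left out. The libraries also share their groups and depth.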
